A study of Mus musculus with 6 samples.

Results

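The genes described here take long-chain fatty acids into the cell, bind them in the cytosol and couple them to coenzyme A. The set was given as a list of 10 symbols: the scavenger receptor Cd36, the transport proteins Slc27a1, Slc27a3 and Slc27a4, the binding proteins Fabp4 and Fabp5, and the long-chain acyl-CoA synthetases Acsl1, Acsl3, Acsl4 and Acsl5. All 10 were found among the 57132 genes of the count table. Of these, 8 had enough counts to be tested, while Cd36 and Fabp4 did not.

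Cells take up long-chain fatty acids with the help of CD36 and of the fatty acid transport proteins that the Slc27a genes encode. The transport proteins can also activate very long chains, fatty acid binding proteins carry the lipid through the cytosol, and acyl-CoA synthetases trap it as acyl-CoA, the form that is stored in triglyceride or oxidized. The members of each family differ in their preferred chains and in where they sit in the cell. Podocytes are the epithelial cells of the glomerular filter, in which lipid accumulation accompanies several glomerular diseases.

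RNA-seq was performed on 3 samples of immortalized wildtype podocytes (WT, Col4a3+/+, line IMWT) and 3 samples of immortalized Alport syndrome podocytes (AS, Col4a3-/-, line IMAS). Alport syndrome is a disease of the glomerular basement membrane, in which collagen type IV chains such as the one encoded by Col4a3 are missing or defective. The question asked of the 2 lines was how the RNA profile of AS podocytes differs from that of WT podocytes. Both lines were labelled as derived from male mice aged 8 weeks, and neither received a treatment. Both also carry the H-2Kb-tsA58 transgene, a temperature-sensitive SV40 large T antigen under an interferon-inducible promoter, which drives division at the lower culture temperature and is inactivated at the higher one. The labels give growth with 10% fetal bovine serum and 20 U/mL interferon gamma at 33 °C, followed by differentiation for 14 days at 37 °C. The study's methods state another medium, less interferon and a shorter differentiation, so the exact culture of these samples is uncertain. Each genotype is represented by 1 line, therefore genotype and line cannot be told apart. Nothing states that the 3 samples of a line were separate cultures, and p-values measure the spread between these samples, which may be technical.

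The libraries held between 45417221 and 54290968 counts. Col4a3 itself was at 1090 ± 170 CPM (CPM is the count relative to the TMM-scaled library size; mean ± SD, n = 3) in WT and 68.8 ± 12.2 CPM in AS podocytes, with -3.98 as log2 fold change (SE 0.15, adjusted p = 1.31e-07, edgeR quasi-likelihood test), which fits the labels. The 12 podocyte markers summed to between 1960 and 2140 CPM in WT and between 1570 and 1650 CPM in AS samples. Most of this came from Actn4 and Synpo, whereas Tcf21 had no count and Nphs1 and Ptpro were under 1 CPM. Many markers of other cells were low: 7 of 8 adipocyte, 7 of 8 endothelial and 6 of 8 macrophage markers were under 1 CPM. The highest marker of these lists was Lipe (9.72 CPM in WT and 9.59 in AS), Ehd3 (48.6 and 40.6) and Csf1r (10.3 and 3.82), respectively. Csf1r was called lower in AS (adjusted p = 9.4e-05, edgeR). The summed CPM of each list ran from 8.87 to 11.3 in WT and from 9.14 to 10.3 in AS for adipocytes, from 44.9 to 53.1 in WT and from 38.1 to 43.1 in AS for endothelium, and from 11.6 to 15.4 in WT and from 5.43 to 7.41 in AS for macrophages, with Lep, Cidec, Cfd, Pck1, Adgre1, C1qa and Marco at 0. Tubular markers were not all low. They summed to between 378 and 424 CPM in WT and between 281 and 392 CPM in AS, with Umod and Aqp2 at 0. Most of this sum was Lrp2 (274 CPM in WT and 255 in AS), and Aqp1 fell from 115 to 69.7 CPM (adjusted p = 0.00432, edgeR). Mesangial and fibroblast markers summed to between 269 and 304 CPM in WT and between 536 and 717 CPM in AS samples, but their genes did not move together. Col1a1 rose from 24.3 to 477 CPM and makes up the rise of the sum, Dcn rose from 0.538 to 2.35 CPM, and Pdgfrb, which held most of the sum in WT, fell from 253 to 116 CPM (adjusted p = 8.71e-07, edgeR). Their part in the values below was not tested. WT replicate 1 stood apart from the other WT samples for several members, and values without it are given beside the results it moved most. In all, 6517 of 16263 genes tested differed between AS and WT at an adjusted p under 0.05.

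Of the 8 members tested, 2 rose in AS podocytes (Slc27a1 and Fabp5) and 2 fell (Acsl1 and Acsl4). The remaining 4 members did not pass the test. The share of tested members called was 50.0%, beside 40.1% of all genes tested, with 20.4% of all genes higher and 19.6% lower. The values of WT and AS did not overlap for 4 of the 8 tested members, beside 52.3% of all genes tested. A set of 8 with these counts is therefore close to the background of the 2 lines, and the count says nothing particular about the set. The median log2 fold change was 0.08 over the tested members and 0.01 over all genes tested, while the median size regardless of direction was 0.47 and 0.28, respectively. The summed CPM of the 10 members came to 454 ± 10.9 over the WT samples and 405 ± 11.3 over the AS samples (SD, n = 3).

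**Figure D1:**
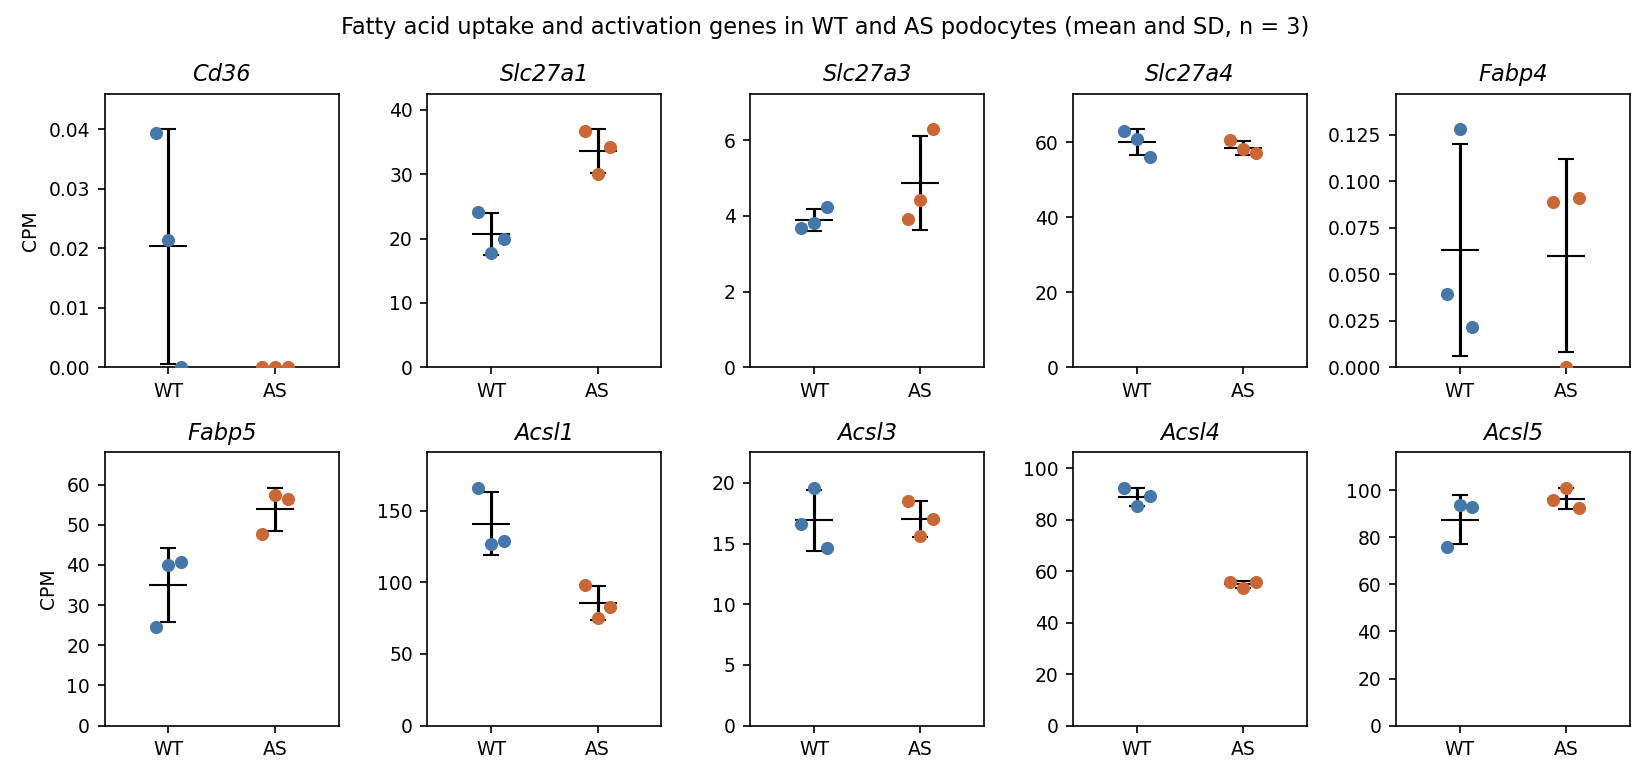
Level of each of the 10 members in CPM (counts relative to library size, linear axis from 0, each panel with its own scale) in the 3 WT and 3 AS samples. Each point is a sample, the horizontal line the mean and the bar the SD (n = 3). Slc27a1 and Fabp5 sit higher in all AS samples, Acsl1 and Acsl4 lower, and Cd36 and Fabp4 are near 0 in both lines.

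The sequences upstream of the transcription start are shown for both members that fell, for 1 that rose and for Cd36, to set the genes beside the values that follow. They are the 250 bases before the RefSeq start on GRCm38.p6, written 5′ to 3′ along the gene's strand. RefSeq start windows were matched for 8 of the 10 members, with 11 windows in all, and not for Fabp4 and Fabp5. Capitals mark matches on either strand to 5 short motifs. The GC box was searched with the letters GGGCGG, the box read by the factor NF-Y with CCAAT, the box near a start site with TATAAA, the nuclear receptor motif with AGGTCA and the E-box with CACGTG.
Acsl1, chr8:46470787-46471036, plus strand: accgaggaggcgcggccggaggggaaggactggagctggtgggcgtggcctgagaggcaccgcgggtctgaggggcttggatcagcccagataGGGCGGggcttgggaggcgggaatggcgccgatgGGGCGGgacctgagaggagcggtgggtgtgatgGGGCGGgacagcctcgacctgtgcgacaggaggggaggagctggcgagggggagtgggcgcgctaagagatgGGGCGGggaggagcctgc
Acsl4, chrX:142390536-142390785, minus strand: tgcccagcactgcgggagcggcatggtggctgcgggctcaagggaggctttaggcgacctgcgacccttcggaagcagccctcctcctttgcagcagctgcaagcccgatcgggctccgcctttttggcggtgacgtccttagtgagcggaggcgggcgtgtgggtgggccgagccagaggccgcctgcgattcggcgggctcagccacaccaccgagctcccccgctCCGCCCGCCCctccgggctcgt
Slc27a1, chr8:71568621-71568870, plus strand: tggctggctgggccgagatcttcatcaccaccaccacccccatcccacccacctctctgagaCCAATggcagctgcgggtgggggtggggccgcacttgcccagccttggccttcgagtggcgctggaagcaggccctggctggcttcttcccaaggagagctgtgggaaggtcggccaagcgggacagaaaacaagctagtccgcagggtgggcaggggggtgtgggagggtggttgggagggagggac
Cd36, chr5:17835897-17836146, minus strand: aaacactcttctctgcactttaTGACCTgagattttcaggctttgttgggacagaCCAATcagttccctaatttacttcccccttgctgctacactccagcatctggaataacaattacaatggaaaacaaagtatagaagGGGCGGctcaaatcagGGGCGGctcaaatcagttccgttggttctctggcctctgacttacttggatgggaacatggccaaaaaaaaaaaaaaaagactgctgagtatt

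The Acsl1 window was 72.0% G and C with 4 GC boxes, and the Acsl4 window 70.8% with 2 GC boxes that overlap each other by 2 bases. The Slc27a1 window was 66.4% G and C and held 1 NF-Y box. The Cd36 window was 43.2% G and C, with 2 GC boxes, 1 NF-Y box and 1 nuclear receptor motif. The bases searched after its start were not found in GENCODE M21 transcripts of Cd36. Those of the other printed windows were found in transcripts of their genes. The median over 32851 windows of the same length was 52.4% G and C. Of those windows, 32.7% held a GC box, 33.8% an NF-Y box, 14.0% a nuclear receptor motif, 12.4% the letters TATAAA and 6.02% an E-box. RefSeq gives Acsl1 and Slc27a1 more than 1 window, of which only the first is printed. Window 2 of Acsl1 was 48.4% G and C, with no GC box and 2 NF-Y boxes. Window 2 of Slc27a1 held 1 GC box, and window 3 held 3 GC boxes, 1 NF-Y box and 1 E-box. For windows 2 and 3 of Slc27a1, the bases searched after the start were also not found in M21 transcripts of the gene. A match is a description of letters only, and which start these cells used was not measured.

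Cd36 (ENSMUSG00000002944.16, chromosome 5), the fatty acid receptor of adipocytes, muscle and macrophages, was practically without reads. It had 2, 1 and 0 counts in WT replicates 1, 2 and 3 and no count in any of the 3 AS samples. A count of 0 in the pooled AS libraries allows a level of up to 0.0198 CPM (3 counts over the group), and the 3 counts in WT correspond to 0.0209 CPM. Both groups were at or under this limit, so no fold is given. Such limits include the error of counting alone. Whether PCR copies of 1 molecule were removed before counting is not stated. In bulk samples fewer cells of a type and less RNA per cell cannot be told apart.

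The transport protein Slc27a1 (ENSMUSG00000031808.8, chromosome 8), also known as FATP1, was at 24.1, 17.8 and 20.0 CPM in WT and at 36.7, 30 and 34.2 CPM in AS replicates 1, 2 and 3. Every AS sample was above every WT sample. The level in AS was 1.62 times that in WT, a log2 fold change of 0.70 (SE 0.12, 95% interval 0.44 to 0.96, adjusted p = 0.00126, edgeR quasi-likelihood test). With WT replicate 1 left out, whose value was the highest of the WT samples, it was 0.83. Slc27a1 lies on chromosome 8, where the median log2 fold change of 890 tested genes was 0.31. Relative to that median the log2 fold change of Slc27a1 was 0.39, a value with no test.

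Slc27a4 (ENSMUSG00000059316.3, chromosome 2), or FATP4, which also activates long and very long chains in the endoplasmic reticulum, was the most abundant transport protein transcript. It was at 62.9, 60.9 and 56.1 CPM in WT and at 60.7, 58.1 and 57.1 CPM in AS samples. These values overlap, and the log2 fold change of -0.03 (95% interval -0.17 to 0.11, adjusted p = 0.703, edgeR) did not pass the test. Slc27a3 (ENSMUSG00000027932.15, chromosome 3) was the lowest of the 3, at 3.67, 3.80 and 4.23 CPM in WT and at 3.91, 4.42 and 6.29 CPM in AS. Only AS replicate 3 was well above the WT samples. The log2 fold change was 0.32 (95% interval -0.11 to 0.76, adjusted p = 0.214, edgeR), and 0.10 without AS replicate 3.

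Fabp4 (ENSMUSG00000062515.4, chromosome 3), the binding protein of adipocytes and macrophages, had 2, 6 and 1 counts in WT and 4, 0 and 5 counts in AS samples. The pooled ratio of AS to WT was 0.948, with an exact counting interval from 0.334 to 2.70, so a difference was not detectable at this depth. Fabp5 (ENSMUSG00000027533.11, chromosome 3), the binding protein first described in epidermis, was well detected. It was at 24.5, 40 and 40.6 CPM in WT and at 47.6, 57.5 and 56.3 CPM in AS samples. All AS samples were above all WT samples, and WT replicate 1 was far below the other WT samples. The log2 fold change was 0.62 (SE 0.17, 95% interval 0.24 to 1.00, adjusted p = 0.0162, edgeR), or 1.54 times the WT level. The call of Fabp5 was lost when AS replicate 2 (0.56, adjusted p = 0.0560) or AS replicate 3 (0.59, adjusted p = 0.0595) was left out. With WT replicate 1 left out, the log2 fold change was 0.42 and the adjusted p 0.00217 (edgeR).

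Fabp5 shares its sequence with processed pseudogenes, among which the counting could split reads. Gm6166 matches the Fabp5 transcript over 409 bases at 98.3% identity, and 4 further pseudogenes match over 336 to 408 bases. Gm6166 was at 7.53, 14.3 and 12.7 CPM in WT and at 6.68, 8.35 and 8.74 CPM in AS. Its values overlapped, with a log2 fold change of -0.54 (adjusted p = 0.0763, edgeR). When the counts of Fabp5 and the 5 pseudogenes were added, the sums were 32.2, 54.4 and 53.4 CPM in WT and 54.5, 66.0 and 65.1 CPM in AS. The 2 groups then differed by 0.41 on the log2 scale (SE 0.17, adjusted p = 0.0916, edgeR) and the call was lost, although the sums still did not overlap. The rise of Fabp5 is thus uncertain.

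**Figure D2:**
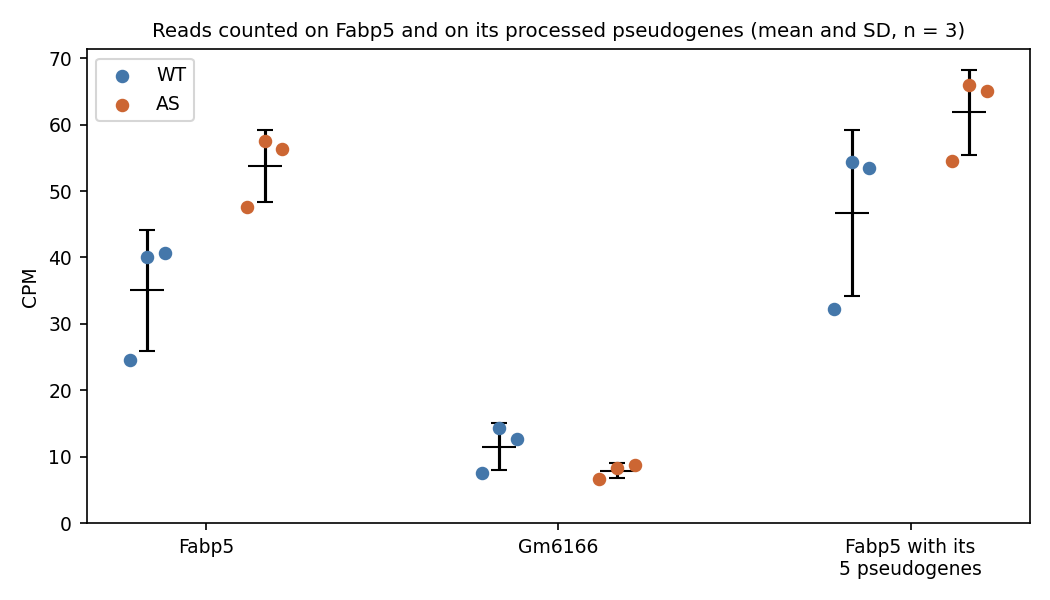
CPM (linear axis) assigned to Fabp5, to its processed pseudogene Gm6166 and to Fabp5 with its 5 pseudogenes, in 3 WT (blue) and 3 AS (orange) samples, with mean and SD. Adding the pseudogenes brings the highest WT value (54.4) next to the lowest AS value (54.5).

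Acsl1 (ENSMUSG00000018796.14, chromosome 8), the main synthetase of fat, heart and liver, had the most reads of the 10 members in WT. It was at 166, 127 and 129 CPM in WT and at 98.0, 75.3 and 83.1 CPM in AS samples. All AS samples were below all WT samples, with WT replicate 1 the highest. AS podocytes had 60.6% of the WT level, a log2 fold change of -0.72 (SE 0.12, 95% interval -0.99 to -0.45, adjusted p = 0.00128, edgeR). Without WT replicate 1 the log2 fold change was -0.59 (adjusted p = 0.000462, edgeR). Acsl1 is on the same chromosome as Slc27a1, and relative to the median of chromosome 8 its log2 fold change was -1.03, a value with no test.

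Acsl4 (ENSMUSG00000031278.13, chromosome X), which prefers arachidonic acid and other polyunsaturated fatty acids, was at 92.4, 85.2 and 89.1 CPM in WT and at 55.9, 53.4 and 55.7 CPM in AS samples. The replicates of each line lay close together and the groups were far apart. AS podocytes had 61.8% of the WT level, a log2 fold change of -0.69 (SE 0.06, 95% interval -0.82 to -0.57, adjusted p = 1.44e-05, edgeR). This was the smallest adjusted p among the members. Relative to the median of chromosome X the log2 fold change of Acsl4 was -0.64, a value with no test.

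Acsl5 (ENSMUSG00000024981.7, chromosome 19), a synthetase of mitochondria and endoplasmic reticulum, was at 75.7, 93.7 and 93.0 CPM in WT and at 95.9, 101 and 92.4 CPM in AS samples. The groups overlapped, and WT replicate 1 was again the WT sample that stood apart. The log2 fold change was 0.14 (95% interval -0.05 to 0.33, adjusted p = 0.213, edgeR), and 0.05 without WT replicate 1. Relative to the median of chromosome 19 it was -0.05, a value with no test. Acsl3 (ENSMUSG00000032883.16, chromosome 1), a synthetase of the endoplasmic reticulum and of nascent lipid droplets, was at 16.6, 19.6 and 14.6 CPM in WT and at 18.5, 15.6 and 17.0 CPM in AS samples. Its log2 fold change was 0.01 (95% interval -0.25 to 0.27, adjusted p = 0.969, edgeR), and the sign changed with the scaling. Acsl5 overlaps Zdhhc6 on the opposite strand (5995 counts in WT and 7466 in AS), and Acsl3 encloses Utp14b on the same strand (417 and 232 counts). Whether the counting used strand is not stated, so reads in the stretches of overlap are uncertain.

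**Figure D3:**
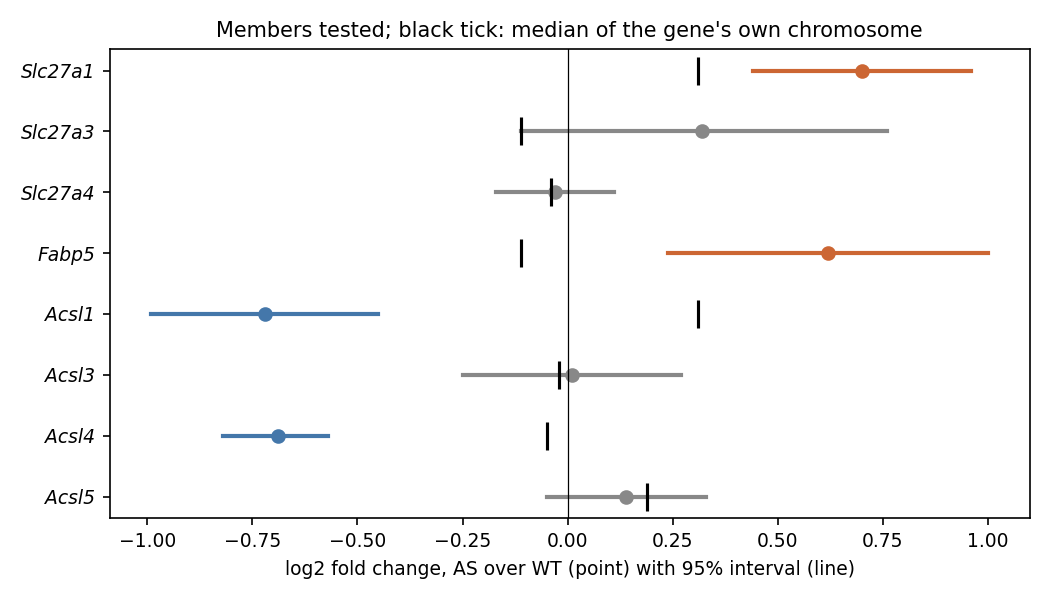
Log2 fold change of AS over WT with its 95% interval for the 8 members tested (orange higher, blue lower, grey not called). Black ticks mark the median log2 fold change of the gene's own chromosome. Slc27a1 (0.70) and Acsl1 (-0.72) lie on either side of the chromosome 8 median of 0.31.

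Levels of different genes were compared per length, as the share of each member in the summed reads per kilobase of its family within a sample. Such a share does not depend on the scaling of the libraries. In the synthetase family, Acsl5 made up 29.7%, 37.2% and 37.3% of the WT total and 45.1%, 50.1% and 46.1% of the AS total. It was the first member in every AS sample, and in WT it overlapped Acsl4 in range. The share of Acsl4 was 31.7% ± 1.11 in WT and 24.2% ± 0.734 in AS, and that of Acsl1 was 25.9% ± 3.79 and 19.3% ± 2.04, respectively (SD, n = 3). None of these 3 shares overlapped between the lines. Without WT replicate 1, which had 30.3% Acsl1, the difference in the Acsl1 share was -4.39 percentage points in place of -6.58, and that in the Acsl5 share was 9.90 in place of 12.4. Acsl3 contributed 7.49% ± 1.09 in WT and 9.27% ± 0.568 in AS, with overlapping values. Acsl6 stayed under 0.2% of the total in each sample.

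The order of the first 3 synthetases depended on the length used. The exons of Acsl1 cover 10483 bases in the annotation, whereas its longest protein-coding transcript has 3897 bases. With that second length, Acsl1 came first in WT, with 46.2% of the family against 26.6% for Acsl5 and 21.6% for Acsl4. In AS the mean shares were 36.8% for Acsl1, 38.3% for Acsl5 and 17.5% for Acsl4. The directions of the differences between the lines were the same with either length.

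Among the transport proteins, Slc27a4 made up 71.8%, 75.1% and 71.1% of the family in WT and 63.7%, 65.8% and 60.8% in AS samples. Slc27a1 took 20.8%, 16.6% and 19.2% in WT and 29.1%, 25.7% and 27.5% in AS samples. With all exons of a gene as length, Slc27a4 was above Slc27a1, and Slc27a1 above Slc27a3, in each of the 6 samples. Neighbours in this order did not overlap. Slc27a3 contributed 8.15% ± 1.01 in WT and 9.04% ± 2.26 in AS, with overlapping values. Slc27a2 had no count. With the longest protein-coding transcript as length, the mean share of Slc27a4 was 61.8% in WT and 50.5% in AS. That of Slc27a1 was then 30.8% and 41.9%, respectively, so the 2 lay closer together in AS.

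In the binding protein family, Fabp5 made up 87.7% ± 2.28 of the total in WT and 94.3% ± 1.30 in AS podocytes. Most of the remainder was Fabp3, the heart and muscle form, with 11.2% ± 2.32 in WT and 5.51% ± 1.16 in AS. With the longest protein-coding transcript as length, Fabp5 made up 96.0% and 98.3%. The difference in its share was 6.59 percentage points with the first length and 2.25 with the second. Counts on its pseudogenes were not added here, so the uncertainty they bring applies to this share too.

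In all, 15 shares were tested by the two-sided exact permutation test. Of the shares given above, those of Acsl1, Acsl4, Acsl5, Slc27a1, Slc27a4, Fabp5 and Fabp3 did not overlap between the lines, each with an exact p of 0.10 and 0.188 after Benjamini-Hochberg adjustment. With 3 samples against 3 the exact test cannot go below 0.10, so none could pass.

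**Figure D4:**
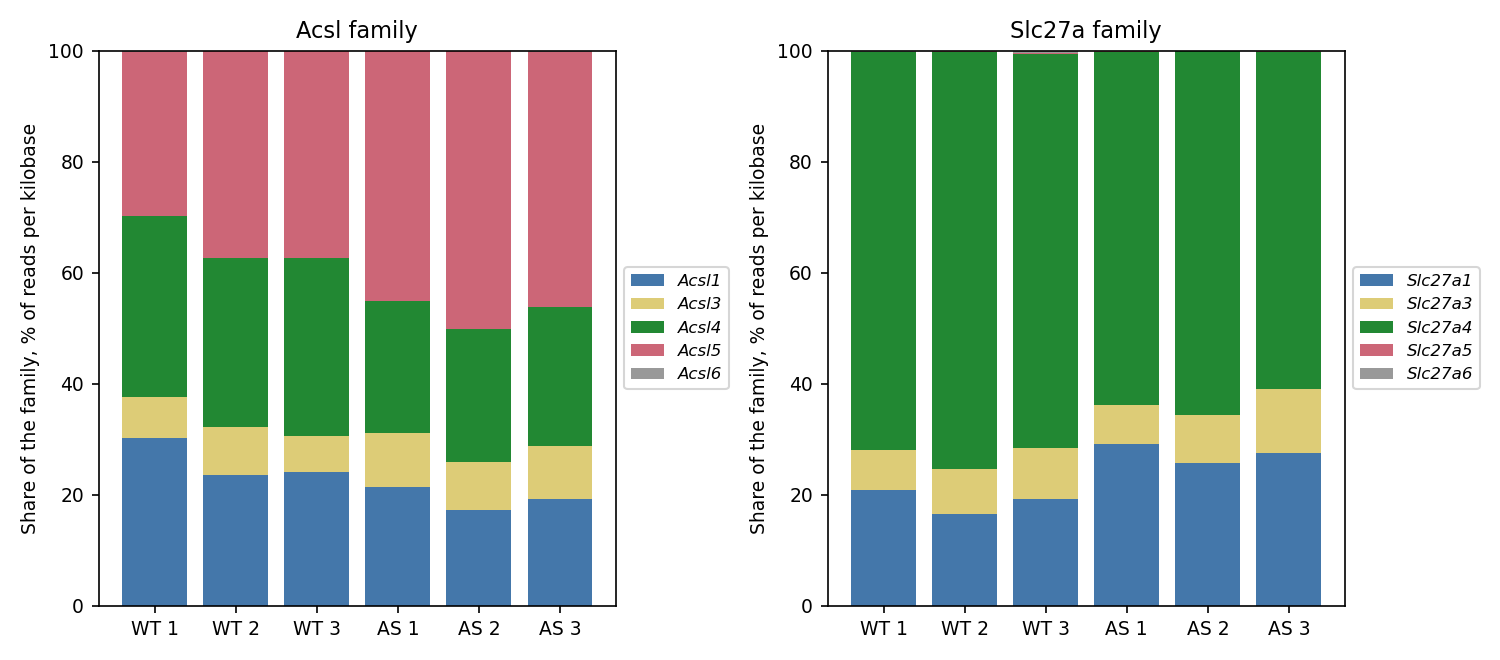
Share of each family member in the summed reads per kilobase of the synthetase family (left) and the transport protein family (right) in each sample, as percent of stacked bars that add up to 100%. The Acsl5 band is wider in all AS samples (45.1% to 50.1%) than in WT samples (29.7% to 37.3%), and so is the Slc27a1 band.

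The summed level of the synthetases was 52.4, 51.7 and 51.3 RPKM (reads per kilobase, relative to library size) in WT and 43.7, 41.4 and 41.2 in AS samples. The AS mean was 0.812 times that of WT, and the groups did not overlap. The sum over the transport proteins was 18.7 ± 1.04 in WT and 21 ± 0.838 in AS (SD), a ratio of 1.12. For the binding proteins the sums were 11.2 ± 2.81 and 16 ± 1.41, a ratio of 1.43, and WT replicate 1 was the lowest at 7.95. Without that sample the difference in the binding protein sum was 3.20 in place of 4.81. Most of this sum was Fabp5, so the uncertainty from its pseudogenes applies here too. With the longest protein-coding transcript as length, the differences were -18.6 for the synthetases, 4.70 for the transport proteins and 18.5 for the binding proteins. With all exons they were -9.75, 2.26 and 4.81. Each of the 3 sums had an exact permutation p of 0.10, also after adjustment, the smallest possible value.

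Members of a family were compared by the log2 ratio of their reads per kilobase within a sample. This was done for the 9 pairs whose members both averaged 1 CPM or more. The ratios restate the member values given above. With 3 samples against 3 the exact test cannot go below 0.10, so no pair could pass. The ratio of Acsl4 to Acsl5 was 0.13, -0.29 and -0.21 in WT and -0.93, -1.07 and -0.88 in AS samples, a difference of -0.84. The ratio of Acsl1 to Acsl5 differed by -0.87, that of Acsl1 to Acsl3 by -0.73, that of Acsl3 to Acsl4 by 0.71 and that of Slc27a1 to Slc27a4 by 0.74. None of these 5 ratios overlapped between the lines, and each had an exact permutation p of 0.10 (0.180 adjusted over the 9 pairs). Without WT replicate 1 the difference was -0.711 for Acsl4 to Acsl5, -0.639 for Acsl1 to Acsl5 and -0.598 for Acsl1 to Acsl3. For Acsl1 to Acsl4 the difference was -0.03 (exact permutation p = 0.70) and for Acsl3 to Acsl5 it was -0.13 (exact permutation p = 0.50), with overlapping values.

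Of 14 other members of the families (Slc27a, Fabp, Acsl6 and the Acsbg synthetases), 3 had enough counts to be tested and none was called, with a median log2 fold change of -0.55. In edgeR, Acsl6 reached an unadjusted p of 0.0247. Acsbg1, a synthetase of very long chains in brain and testis, was at 1.41 ± 0.608 CPM in WT and 0.959 ± 0.0425 CPM in AS (SD, n = 3). Its log2 fold change of -0.55 did not pass (adjusted p = 0.232, edgeR), and it did pass without WT replicate 1 (-0.86, adjusted p = 0.0278, edgeR). Another 6 of the 14 had no count in any sample.

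Among 14 genes listed as partners of uptake, not all of them at the membrane, 13 were tested, 4 rose and 4 fell. The share called was 61.5%, beside 40.1% of all genes tested, with a median log2 fold change of -0.02. Ddr1, a collagen receptor that the study ties to CD36 activity, was at 855, 734 and 748 CPM in WT and at 531, 514 and 467 CPM in AS samples. All AS samples were lower, with a log2 fold change of -0.63 (SE 0.08, adjusted p = 0.000260, edgeR). Scarb2, a lysosomal relative of CD36, rose from 91.6 ± 3.22 to 183 ± 9.93 CPM (log2 fold change 1.00, adjusted p = 2.21e-06, edgeR). Cav2, a caveolin, fell from 107 ± 9.88 to 74.7 ± 2.25 CPM (-0.52, adjusted p = 0.000405), and Fyn, a kinase at the membrane, rose from 71.9 ± 3.49 to 87.7 ± 4.73 CPM (0.29, adjusted p = 0.00514). Relative to the median of the gene's own chromosome, a value with no test, Fyn was at -0.02, Cav2 at -0.32 and Scarb2 at 0.81.

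Of 11 genes that release fatty acids outside the cell, 8 were tested, 2 rose and 1 fell (37.5% called, beside the same 40.1%), with a median of 0.35. Vldlr, a receptor for triglyceride-rich lipoproteins, rose from 43.3 ± 3.33 to 56.0 ± 4.25 CPM (log2 fold change 0.37, adjusted p = 0.00471, edgeR), and relative to the median of its chromosome its value was 0.18. Lmf1, which matures lipases, rose from 14.5 ± 0.879 to 19.3 ± 2.21 CPM (0.41, adjusted p = 0.00979). Lipg, endothelial lipase, fell from 6.60 ± 0.722 to 4.39 ± 0.946 CPM (-0.59, adjusted p = 0.0237), a call lost without AS replicate 1 (-0.54), AS replicate 3 (-0.47) or WT replicate 2 (-0.50).

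Downstream of the synthetases, 13 of 15 genes of acyl-CoA binding and hydrolysis were tested, 2 rose and 4 fell, with a median of -0.0039. The share called was 46.2%, beside 40.1% of all genes tested. The thioesterases Acot11 and Acot12 had the largest log2 fold changes of this list. Acot11 was at 9.51, 10.9 and 10.3 CPM in WT and at 2.26, 1.89 and 2.00 CPM in AS samples (log2 fold change -2.32, SE 0.14, adjusted p = 2.02e-06, edgeR). Acot12 was low in both lines, at 0.953 ± 0.195 and 0.135 ± 0.0713 CPM (-2.82, adjusted p = 0.00105). Dbi, the acyl-CoA binding protein, fell from 64.9 ± 2.08 to 48.8 ± 1.49 CPM (-0.41, adjusted p = 0.000410), whereas Acot7, a cytosolic thioesterase, rose from 57.5 ± 7.24 to 88.8 ± 6.06 CPM (0.63, adjusted p = 0.000661). Relative to the median of their chromosome, a value with no test, Acot11 was at -2.15 and Acot7 at 0.80.

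Of 11 synthetases for shorter chains, 5 were tested, 2 rose and 2 fell, with a median of 0.27. The share called was 80.0% of only 5 genes, beside 40.1% of all genes tested. Acss2, which activates acetate in cytosol and nucleus, rose from 12.9 ± 2.13 to 20.1 ± 0.177 CPM (log2 fold change 0.64, adjusted p = 0.00186, edgeR), and Aacs, which activates acetoacetate, rose from 59.0 ± 1.37 to 74.8 ± 7.55 CPM (0.34, adjusted p = 0.00539), or 0.15 relative to the median of its chromosome. Acss3, a mitochondrial relative of Acss2 for propionate, fell from 5.45 ± 0.814 to 1.71 ± 0.146 CPM (-1.68, adjusted p = 7.90e-05), or -1.98 relative to the median of its chromosome. Acsf2, a synthetase of medium chains, was at 12.1 ± 1.14 and 9.80 ± 0.095 CPM (-0.30, adjusted p = 0.0428), a call that did not hold without any 1 of the AS samples, WT replicate 1 or WT replicate 3 (-0.31 to -0.26). With all samples, its call was also lost with library size as the only scaling (-0.27, adjusted p = 0.0619, edgeR) and with no filter on low counts (-0.30, adjusted p = 0.0699, edgeR).

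Of 17 regulators of these genes, 15 were tested, 3 rose and 3 fell, with a median of 0.03. The share called was 40%, beside 40.1% of all genes tested. None of the 3 PPAR genes, which encode nuclear receptors for fatty acids, passed the test. Ppard was at 48.8 ± 3.84 CPM in WT and 49.0 ± 0.845 CPM in AS (SD), with a log2 fold change of 0.01 (95% interval -0.15 to 0.16). Pparg (0.587 ± 0.0594 and 0.590 ± 0.0966 CPM) and Ppara (0.297 ± 0.0711 and 0.300 ± 0.251 CPM) were low in both lines, and their intervals were wide, from -0.70 to 0.72 and from -1.32 to 1.38, respectively. Relative to the median of its chromosome, a value with no test, Pparg was at 0.21. Prkaa2, a catalytic subunit of the energy sensor AMPK, fell from 98.5 ± 2.07 to 71.9 ± 4.44 CPM (-0.46, adjusted p = 0.000298, edgeR), or -0.28 relative to the median of its chromosome. Srebf1, a regulator of lipid synthesis, rose from 67.9 ± 4.31 to 82.3 ± 4.35 CPM (0.28, adjusted p = 0.00830, edgeR). Rxra, the partner of the PPARs, was at 50.8 ± 1.14 and 58.1 ± 2.79 CPM (0.19, adjusted p = 0.0259) and Klf4 at 49.8 ± 14.2 and 73.2 ± 8.52 CPM (0.56, adjusted p = 0.0264). Rxra lost its call without AS replicate 1 (0.16), AS replicate 3 (0.18), WT replicate 2 (0.21) or WT replicate 3 (0.20). Klf4 lost its call without AS replicate 1 (0.45), AS replicate 2 (0.58), WT replicate 2 (0.45) or WT replicate 3 (0.43). Without WT replicate 1, which had the highest WT value at 66.1 CPM, Klf4 was at 0.82 (adjusted p = 3.66e-05, edgeR).

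**Figure D5:**
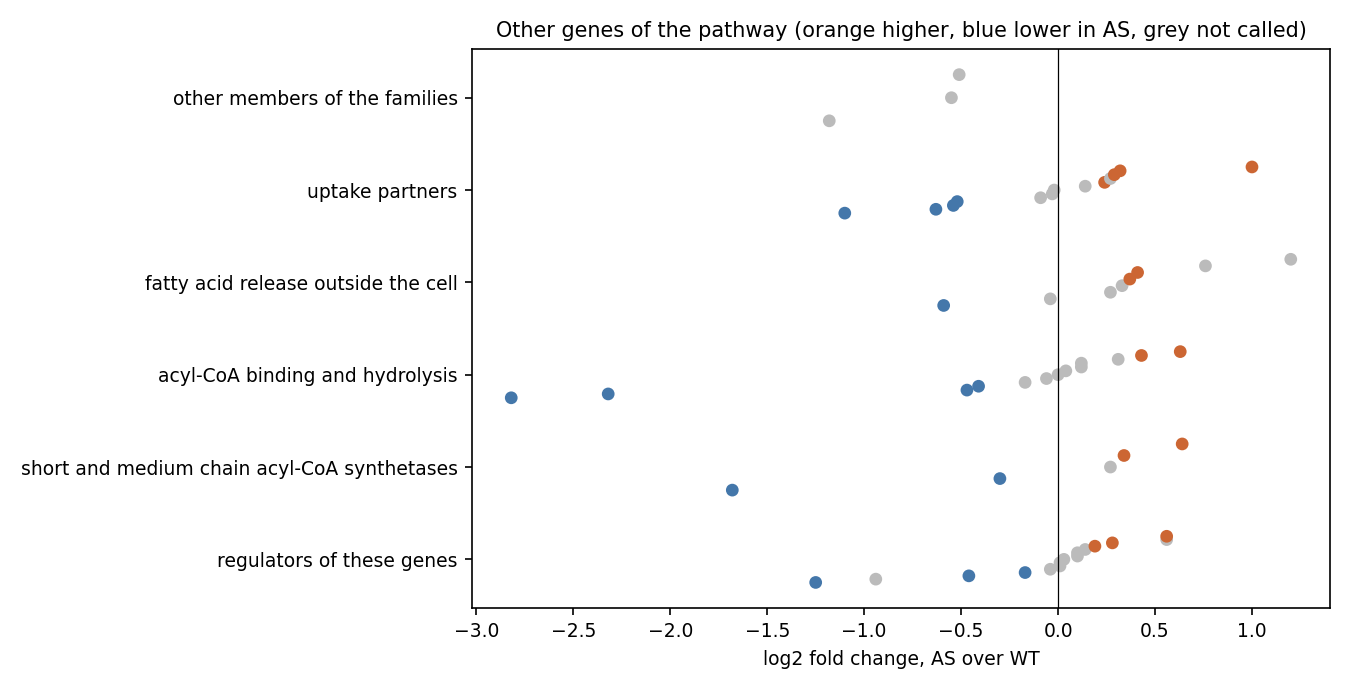
Log2 fold change of AS over WT for the tested genes of 6 lists around fatty acid uptake and activation, 1 point per gene (orange higher, blue lower, grey not called). Points lie on both sides of 0 in each list except the other family members, whose 3 tested genes are below 0 without a call.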

How the data were processed

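mRNA libraries from 3 WT and 3 AS podocyte samples (15 cycles of PCR) were sequenced, and the authors deposited unnormalized counts, which are whole numbers of reads on each gene. The submitters' processing notes name FastQC, Trim Galore, STAR, edgeR and the build mm39, without versions. Which counting tool and annotation release they used is not given in the sources. Gene symbols were taken from GENCODE M21 by Ensembl identifier with the version removed: 51880 of 57132 identifiers matched, 35 of them with the same version. Gene lengths (union of exons, or longest protein-coding transcript) also come from M21 on GRCm38 and are approximations for counts made on another build. Start windows are from RefSeq on GRCm38.p6.

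Analysis used edgeR 4.0.16, DESeq2 1.42.0 and limma 3.58.1 in R 4.3.3. After TMM scaling, the quasi-likelihood test of edgeR was applied to the 16263 genes that passed filterByExpr (a count of 10 and a total of 15 as minimum), with a term for genotype alone and Benjamini-Hochberg adjustment. The study's own test, limma-voom, was an alternative. Totals of 45417221 to 54290968 counts per sample set the precision. The standard error was approximated as the size of the log2 fold change over the root of the F statistic, and the 95% interval was made from it. Shares, family sums and ratios were compared by two-sided exact permutation tests. The steps were tested on simulated data. Sequences shared with other genes were searched over at least 300 bases at 90% identity or more.

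The 10 members and the gene lists were chosen with earlier results of these data known. The genes named are the members, Col4a3, Ddr1, the 3 PPAR genes, the called genes of each list up to 4, taken by adjusted p, and other family members with a mean CPM of at least 1. Fabp3, Acsl6, the pseudogenes and overlapping genes were named because a value rests on them. Alternatives were DESeq2, limma-voom, RLE size factors, library size only, no filter on low counts, a filter on mean CPM at 1, other lengths, omission of single samples, a replicate block, the chromosome median removed, and, chosen after seeing the data, Fabp5 with its pseudogenes and the longest protein-coding transcript as length.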

Additional observations from a re-analysis of the deposited data

How the results depend on the processing

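Between 5120 and 6776 genes were called when single samples were left out, against 6517 with all samples. The number of members lower in AS was 2 under each alternative, and the number higher was 2 except without AS replicate 2, without AS replicate 3 and with Fabp5 joined to its pseudogenes, where it was 1 (range over samples left out, 1 to 2). Over the alternatives with a test, the adjusted p lay between 1.26e-09 and 0.00801 for Slc27a1, between 1.08e-12 and 0.00974 for Acsl1 and between 1.38e-21 and 0.000268 for Acsl4. Log2 fold changes with samples left out ran from 0.60 to 0.83 for Slc27a1, from 0.42 to 0.74 for Fabp5, from -0.84 to -0.59 for Acsl1, from -0.72 to -0.67 for Acsl4 and from 0.05 to 0.19 for Acsl5. The following directions turned. Acsl3 was at -0.0018 with DESeq2 and with RLE size factors, at -2.3e-05 with a mean CPM of at least 1, and from -0.09 to 0.12 with samples left out. Ppard was at -0.0029, -0.0028 and -0.00069 under those settings and from -0.05 to 0.07. Ppara was at -0.29 with limma-voom and from -0.91 to 0.44, Pparg ran from -0.11 to 0.12, and Slc27a4 from -0.08 to 0.0016. With the chromosome median removed, Fyn was at -0.02, Acsl5 at -0.05, Ppara at -0.17 and Slc27a4 at 0.0033. The share of Slc27a3 ran from -0.335 to 1.89 percentage points and that of Fabp4 from -0.084 to 0.0128, and the log2 ratio of Acsl1 to Acsl4 from -0.118 to 0.0712. The cause of these turns was not tested. The chromosome median was removed from values only, so it gives no count of calls. Same-numbered WT and AS samples correlated at 0.147, 0.0939 and 0.0526 in their deviations and differently numbered ones at -0.13 to 0.0571, and 5 of 6 samples correlated best with their own number. This is a hint from the data, whereas no label says what a number marks, so the numbers were not taken as pairs. A replicate block for this pairing gave 7066 calls, left the 2 and 2 members called and turned Ppara to -0.18. Its exact test of shares cannot go below 0.25. Of 414 values with a test over 32 named genes, 371 kept direction and side of the threshold. Depth limits Cd36, Fabp4 and the low family members.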

Other observations

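The following genes were chosen after their values were seen. Cav1, the main protein of caveolae, was at 547, 856 and 870 CPM in WT and at 505, 557 and 502 CPM in AS samples, with a log2 fold change of -0.54 (adjusted p = 0.0194, edgeR). WT replicate 1 lay within the range of the AS samples, and it was also the WT sample with the lowest Fabp5 and Acsl5 and the highest Acsl1 and Slc27a1. Mfsd2a, a transporter of fatty acids bound to lysophosphatidylcholine, was at 2.43, 5.08 and 4.62 CPM in WT and at 1.64, 1.81 and 2.20 CPM in AS (log2 fold change -1.10, adjusted p = 0.0113, edgeR), and WT replicate 1 was again the lowest of the WT samples. Fabp7, the binding protein of glia, had 17 counts in WT and 1 in AS, a ratio of 0.0558 with an exact counting interval from 0.00133 to 0.356.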
